A study of Mus musculus with 4 samples.

Results

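The transcripts of 9 genes of microglia and the complement system were followed in mouse eyes: Cx3cr1, Csf1r, P2ry12, Aif1, Tmem119, C1qa, C1qb, C1qc and C3. They were chosen by name as markers of microglia and macrophages or as complement components, with earlier results of these data known, and all 9 were found among the 22863 genes of the deposited table. The eyes came from melatonin-proficient C3H/f+/+ mice, which lack the Pde6b mutation of the original C3H strain. In subjective day (2 samples), mice were taken at circadian time (CT) 6 after 18 hours of darkness, a duration given as 30 hours elsewhere in the study, whereas in objective day (2 samples) they had seen morning light and were taken at zeitgeber time (ZT) 6 after 1 hour of darkness. Each sample pooled 4 eyes of 1 female and 1 male mouse, and the mice were described as age-matched without an age being given for the RNA-seq animals. The retina, retinal pigment epithelium (RPE), choroid and posterior sclera were kept together, so that microglia of the retina and macrophages of the choroid and sclera were measured in the same extract. Both the light history and the hours of darkness differed between the conditions, and their effects cannot be told apart.

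Microglia are the resident macrophages of the nervous system, and in the healthy retina they extend motile processes through the synaptic layers. CX3CR1 receives the neuronal chemokine fractalkine, CSF1R receives the survival signals CSF1 and interleukin-34, P2RY12 senses ADP and guides the processes of surveying microglia, and TMEM119 is a marker of microglia. AIF1, also known as IBA1, is an actin-binding protein of microglia and macrophages. In the nervous system microglia are a main source of C1q, the recognition protein of the classical complement pathway, which is assembled from A, B and C chains. C3 is the protein on which the complement pathways converge, and its fragments mark synapses, debris and microbes for uptake.

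The 3 C1q genes lie side by side on the minus strand of chromosome 4 of the GRCm38 assembly in GENCODE release M21, C1qa at 136895917 to 136898803, C1qc at 136889804 to 136893065 and C1qb at 136880129 to 136886187. P2ry12 lies on the minus strand of chromosome 3 at 59216272 to 59262871, Cx3cr1 on the minus strand of chromosome 9 at 119901616 to 120069879, and Tmem119 on the minus strand of chromosome 5 at 113793729 to 113800516. Aif1 at 35170991 to 35176068 and C3 at 57203970 to 57228136 are both on the minus strand of chromosome 17. Exons of a gene on the opposite strand share 873 exonic bases with Csf1r (Hmgxb3), 78 with Cx3cr1 (Gm33858) and 9 with P2ry12 (Med12l). The strand setting of the counting is not stated, so reads from these shared bases cannot be assigned to either gene with certainty.

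The sequences before the transcription start of P2ry12 and C1qb are shown because P2ry12 was the gene of the 9 that fell and C1qb is one of the C1q chains. They cover the 250 bases upstream of the RefSeq start in the GRCm38.p6 assembly, on the minus strand at chr3:59262986-59263235 for P2ry12 and at chr4:136886201-136886450 for C1qb, and are written 5′ to 3′ toward the start. Capitals mark matches, on either strand, to AGGAAGT or GAGGAA, purine-rich words of the kind bound by ETS-family factors such as the myeloid regulator PU.1.
P2ry12: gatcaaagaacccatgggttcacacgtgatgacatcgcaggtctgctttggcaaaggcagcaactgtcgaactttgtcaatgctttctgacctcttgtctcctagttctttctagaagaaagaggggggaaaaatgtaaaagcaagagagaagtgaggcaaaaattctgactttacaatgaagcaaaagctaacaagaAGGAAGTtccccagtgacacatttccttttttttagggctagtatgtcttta
C1qb: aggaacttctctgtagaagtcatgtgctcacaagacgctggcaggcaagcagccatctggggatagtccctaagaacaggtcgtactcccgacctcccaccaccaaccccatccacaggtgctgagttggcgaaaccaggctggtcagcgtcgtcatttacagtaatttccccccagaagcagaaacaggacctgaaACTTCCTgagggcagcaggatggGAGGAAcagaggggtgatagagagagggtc
AGGAAGT began 52 bases upstream of the P2ry12 start, and in C1qb its reverse complement began 53 bases upstream and GAGGAA 30 bases upstream. RefSeq windows were matched for 6 of the 9 genes (P2ry12, C1qb, C1qc, Cx3cr1, Aif1 and C3), and not for C1qa, Csf1r and Tmem119. AGGAAGT was found in 3 of the 6 (P2ry12, C1qb and C1qc), compared with 7.69% of all 32851 promoter windows of the same length, and GAGGAA was found in 3 of the 6 (C1qb, C1qc and Aif1), compared with 23.3% of all windows. The matches to both words overlap in C1qc. The RefSeq starts of P2ry12 and C1qb lie 114 and 13 bases outside the genes as GENCODE annotates them, and those of the other 4 lie within. A match describes these letters only.

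All 9 genes were detected in every sample, at values from 33.5 for Aif1 to 1751 for Csf1r. The deposited values have decimals and near-equal totals, from 33278417 to 35236783 per sample, and were read as gene counts brought to one library size. This form was inferred from the values and is not stated in the sources used here, and the depth of sequencing is not known from them. For comparison between genes, the mean over the 4 samples was divided by the length of the longest transcript. On this per-kilobase level C1qa was highest at 364, followed by Csf1r at 350.4, C1qb at 349, C1qc at 296, C3 at 166, Tmem119 at 87.8, Aif1 at 57.2, P2ry12 at 54.6 and Cx3cr1 at 48.7. The ranges of neighbours in this order overlapped over the 4 samples, except those of C1qc and C3 and those of C3 and Tmem119. The C1q chains and Csf1r thus stood above C3, and the other 4 microglial genes stood below it.

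Of the 9 genes, only P2ry12 differed between the conditions at an adjusted p under 0.05 in limma's test, and it was lower in objective day, at 0.535 times its subjective day level. Among all 17784 genes tested, 8.51% passed the same threshold, 7.45% lower and 1.06% higher in objective day. The other 8 genes did not pass, and 3 of them (Aif1, C1qa and C1qb) had an unadjusted p under 0.05. With P2ry12 that makes 4 of the 9, against 25.4% of all genes tested. The values of the conditions did not overlap for P2ry12, Aif1, C1qa and C1qb, that is for 4 of the 9, against 56.1% of all genes tested. Fold changes are objective over subjective day on the log2(value + 1) scale, and over the 9 genes their median was 0.19, compared with 0.01 over all genes tested. Because the extracts held several tissues, fewer cells of a type and less RNA per cell cannot be told apart for any of these genes. With 2 samples against 2, an exact permutation test of a gene by itself cannot go below p = 0.333, so that a call rests on the spread that limma shares among genes.

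**Figure D1:**
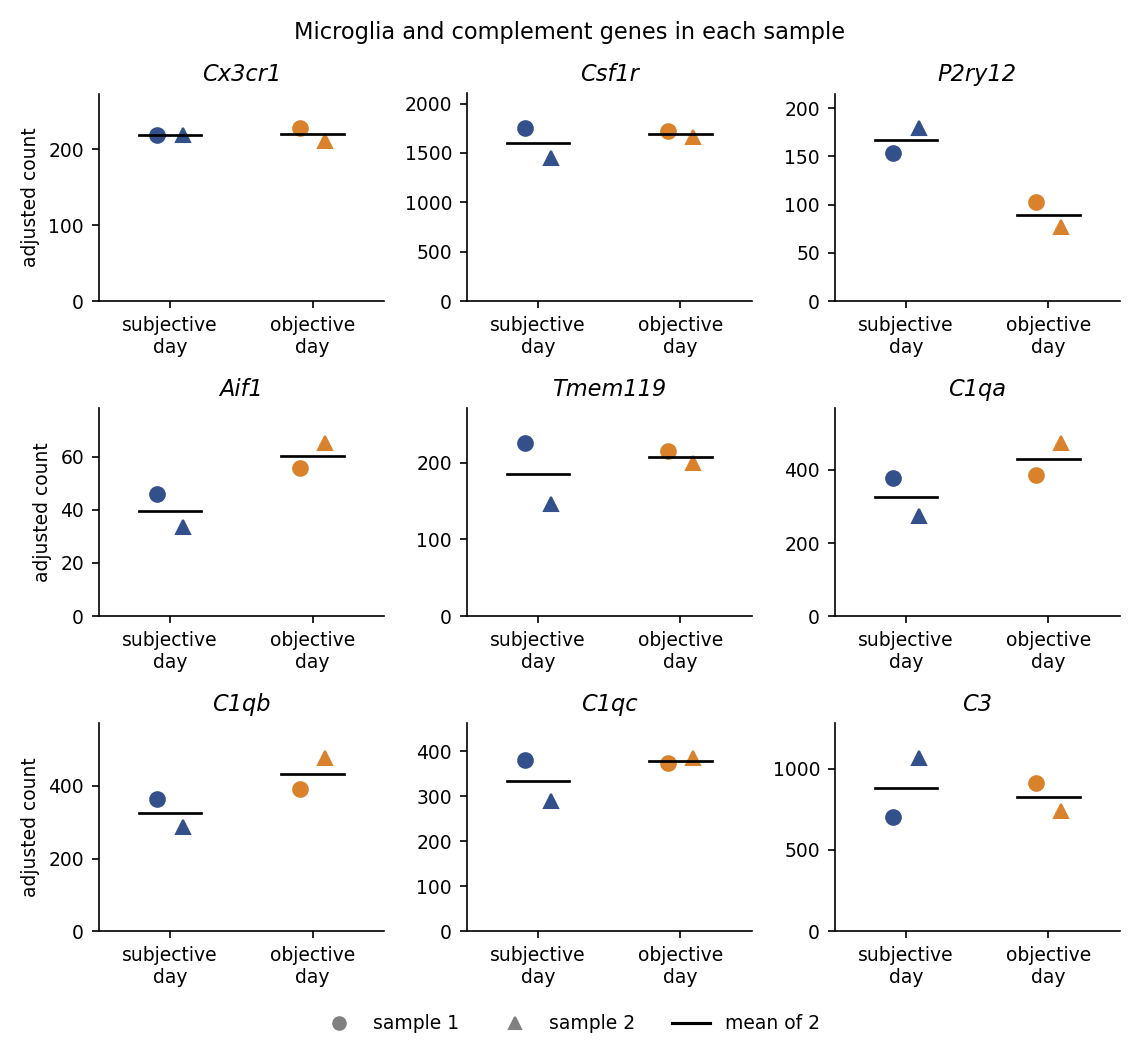
Adjusted values of the 9 genes (y axes, gene counts at a common library size) in each sample, with points for samples and bars for the mean of the 2 samples of a condition. P2ry12 lay at 154 and 179 in subjective day and at 102 and 76.3 in objective day, whereas the values of Cx3cr1 stayed between 211 and 228.

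P2ry12, the ADP receptor, had values of 154 and 179 in the subjective day samples and of 102 and 76.3 in the objective day samples. Both objective day samples were below both subjective day samples. The means were 166 ± 17.98 and 89.3 ± 18.4 (SD, n = 2 each), a log2 fold change of -0.90 (SE 0.19, 95% interval -1.35 to -0.46) with an adjusted p of 0.0301 from limma. This corresponds to a level that fell by 46.5% in objective day. The call was lost without the second subjective day sample (log2 fold change -0.79, adjusted p = 0.0700) and without the second objective day sample (-0.69, adjusted p = 0.126), and over the 13 alternatives the adjusted p ranged from 0.0136 to 0.323, with 8 of them past the threshold. With the trend along GC content removed, the estimate was -0.44 (adjusted p = 0.323).

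The receptors Cx3cr1 and Csf1r, which mark the same lineage, did not pass the test that P2ry12 passed. Csf1r lies on the plus strand of chromosome 18 at 61100598 to 61132149. Cx3cr1 was at 219 and 218 in subjective day and at 228 and 211 in objective day, so that the objective day samples lay on either side of both subjective day samples. Its fold change was 1.00 with a 95% interval of 0.831 to 1.21 (adjusted p = 0.983 in limma), compared with 0.535 (0.393 to 0.728) for P2ry12. With the GC trend removed, the 95% intervals of the log2 fold changes overlapped, at -0.31 to 0.22 for Cx3cr1 and -0.86 to -0.03 for P2ry12. The difference between these genes was not tested. Csf1r was at 1751 and 1452 in subjective day and at 1723 and 1663 in objective day, with the objective day values inside the range of subjective day. Its log2 fold change was 0.09 (95% interval -0.13 to 0.31, adjusted p = 0.614), and for both receptors the sign turned when the trend with GC content was removed.

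Tmem119 and Aif1 had higher means in objective day, and neither passed the test. Tmem119 was at 226 and 146 in subjective day and at 216 and 199.8 in objective day, so that the subjective day samples enclosed the others (log2 fold change 0.19, 95% interval -0.29 to 0.67, adjusted p = 0.605). Its log2 fold change was 0.50 without the first subjective day sample and -0.12 without the second. Aif1 was at 45.9 and 33.5 in subjective day and at 55.7 and 65.1 in objective day, without overlap. Its log2 fold change of 0.61 had an SE of 0.25 (95% interval 0.02 to 1.19), and the adjusted p was 0.182. Among the 9 genes, the log2 fold change was lowest for P2ry12 and highest for Aif1.

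Within each sample the value of P2ry12 was also set against that of Cx3cr1, a choice made after the values were seen. This ratio does not depend on the scaling of the library, but it keeps the trend along GC content. Removing that trend took the log2 fold change of P2ry12 from -0.90 to -0.44 and that of Cx3cr1 from 0.006 to -0.042. Because Cx3cr1 varied little, by 1.08 times from its lowest to its highest value, the ratio largely repeats the values of P2ry12. P2ry12 was 0.703 and 0.821 times Cx3cr1 in subjective day, compared with 0.449 and 0.361 times in objective day. The ratio of Csf1r to Cx3cr1 was 8.01 and 6.65 in subjective day, compared with 7.56 and 7.87 in objective day, with overlapping conditions. Tmem119 was 1.03 and 0.669 times Cx3cr1 in subjective day, compared with 0.946 times in both objective day samples, again with overlap. The ratios of Aif1 (0.210 and 0.153, compared with 0.244 and 0.308) and C1qb (1.67 and 1.31, compared with 1.71 and 2.26) to Cx3cr1 were higher in both objective day samples. The second subjective day sample had the lowest ratio for Csf1r, Tmem119, Aif1 and C1qb and the highest for P2ry12.

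**Figure D2:**
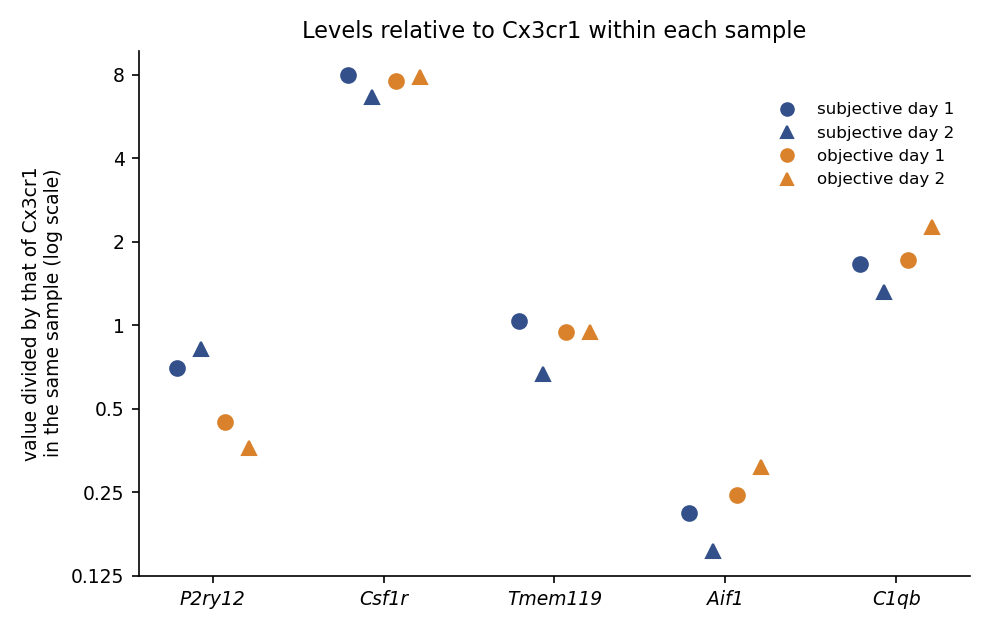
Value of 5 genes divided by that of Cx3cr1 in the same sample (y axis, log scale), with circles for the first and triangles for the second sample of a condition. P2ry12 was the gene whose ratio was lower in both objective day samples, at 0.449 and 0.361. The ratios keep the trend along GC content.

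The A, B and C chains of C1q had higher means in objective day, without passing the threshold. C1qa was at 378 and 274 in subjective day and at 387 and 473 in objective day (log2 fold change 0.41, SE 0.17, adjusted p = 0.185). C1qb was at 364 and 286 in subjective day and at 390.2 and 476 in objective day (0.41, SE 0.15, adjusted p = 0.137). For these chains the lowest value was in the second subjective day sample and the highest in the second objective day sample. C1qc was at 380.45 and 289 in subjective day and at 372 and 384 in objective day, with overlapping conditions (0.19, SE 0.14, adjusted p = 0.441). Without the first subjective day sample, C1qa (0.64, adjusted p = 0.0171) and C1qb (0.59, adjusted p = 0.0235) passed the threshold, and in the other 12 alternatives neither did, with adjusted p up to 0.534 for C1qa and 0.481 for C1qb.

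The A and B chains kept close to each other in every sample. The ratio of C1qa to C1qb was 1.04 and 0.958 in subjective day, compared with 0.993 and 0.994 in objective day. That of C1qc to C1qb was 1.04 and 1.01 in subjective day, compared with 0.955 and 0.807 in objective day, so that it was lowest in the second objective day sample, where both other chains peaked. The ratios are given per sample as descriptions, with no test.

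C3 differed more between the subjective day samples than between the means of the conditions. Its values were 702 and 1066 in subjective day, compared with 912 and 739.8 in objective day. The objective day samples lay inside the range of subjective day, and the log2 fold change was -0.07 (95% interval -0.52 to 0.37, adjusted p = 0.842). The second subjective day sample thus held the highest C3 and the lowest C1q of the 4 samples. It was the lowest sample for 6 of the 9 genes, whereas the first objective day sample was the lowest for 0 of them.

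Across all genes, differences between the conditions rose with the GC content of the transcripts (Spearman correlation 0.58 over 17536 genes, a description across genes that share the same 4 samples). P2ry12 has a GC content of 38.6%, at the percentile 3.06 of the genes tested, while the other 8 genes lie above the median of 49.8%. After the trend of each sample was removed by local regression, the log2 fold change of P2ry12 was -0.44 (SE 0.18, 95% interval -0.86 to -0.03) with an adjusted p of 0.323 in limma. In that fit 0 of the 9 genes passed and 1 had an unadjusted p under 0.05, while 1.07% of 17536 genes passed and 14.3% had an unadjusted p under 0.05. Removing the trend also brought C1qa to 0.27 and C1qb to 0.29, Aif1 to 0.53 and Tmem119 to 0.06, and the median of the 9 genes to 0.06. The trend was measured across all genes, and its part in the values of P2ry12 was not tested.

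**Figure D3:**
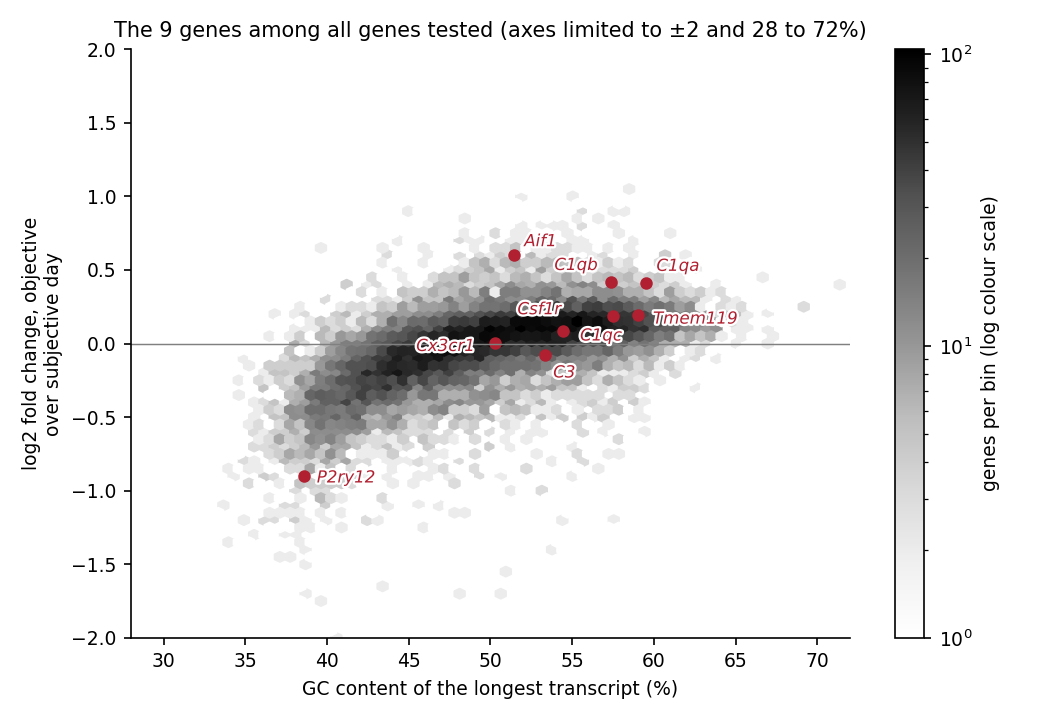
GC content of the longest transcript (x axis, percent) against the log2 fold change of objective over subjective day (y axis) for the genes tested, shaded by genes per bin on a log scale, with the 9 genes in red. P2ry12 lies at 38.6% GC and -0.90, and the other 8 lie between 50.3% and 59.5% GC.

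**Figure D4:**
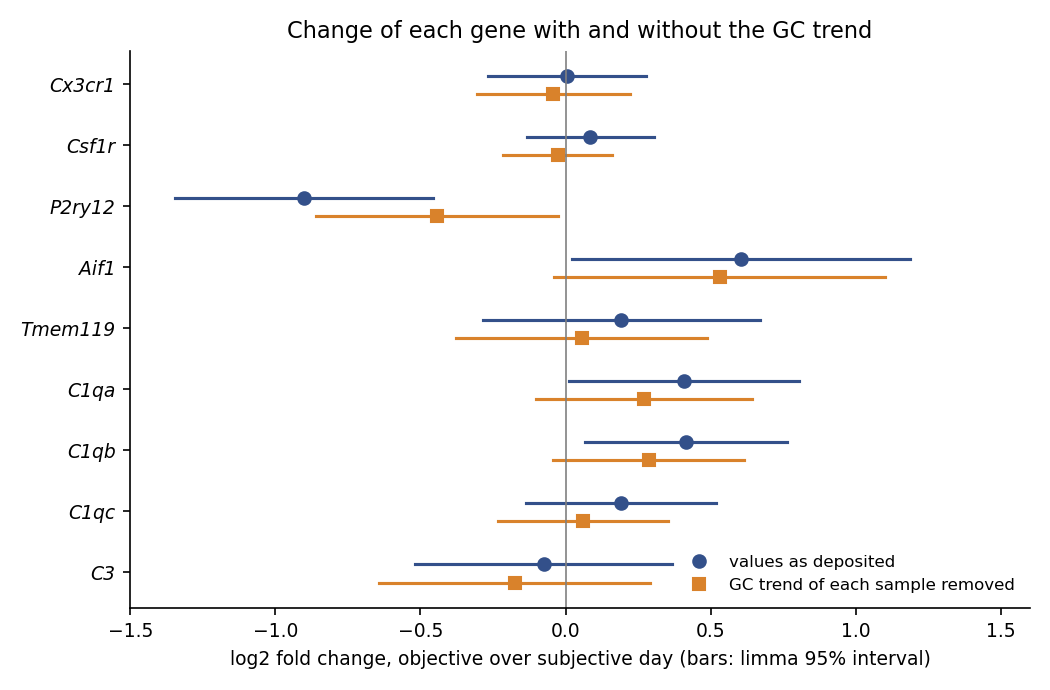
Log2 fold change of objective over subjective day (x axis) with limma's 95% interval for each gene, from the values as deposited (circles) and with the GC trend removed (squares). For P2ry12 the estimate moved from -0.90 to -0.44.

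Other genes of microglia and their partners were then read in the same comparison. Of 8 further genes enriched in microglia, 0 passed limma's test and 2 (Gpr34 and Slc2a5) had an unadjusted p under 0.05, against 25.4% of all genes tested. Their median log2 fold change was -0.18, compared with 0.01 over all genes tested, and -0.11 with the GC trend removed. Olfml3, a secreted glycoprotein, was at 328 and 243 in subjective day and at 288 and 278 in objective day, inside the range of subjective day (log2 fold change 0.0046, adjusted p = 0.989). Golm1, a Golgi protein, was at 374 and 372 in subjective day and at 344 and 356 in objective day (-0.09, adjusted p = 0.578). Golm1 shares 1297 of its 4424 exonic bases with Naa35 on the opposite strand. Gpr34 and Slc2a5 were named after their values were seen. Gpr34, a receptor of microglia with a GC content of 37.1%, was at 41.9 and 38.9 in subjective day and at 13.1 and 25.9 in objective day (-1.09, adjusted p = 0.118, and -0.54 with the GC trend removed). Slc2a5, a fructose transporter with a GC content of 53.2%, was at 43.9 and 37.8 in subjective day and at 27.4 and 24.8 in objective day (-0.62, adjusted p = 0.188, and -0.72 with the GC trend removed).

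Of 10 myeloid receptors and adaptors, 0 passed and 3 had an unadjusted p under 0.05, against 25.4% of all genes tested. Tyrobp, the signalling adaptor of TREM2, was at 85.9 and 61.4 in subjective day and at 104 and 105 in objective day (log2 fold change 0.52, SE 0.21, adjusted p = 0.171). It passed without the first subjective day sample (0.76, adjusted p = 0.0454) and was at 0.28 without the second. It had its lowest value in the second subjective day sample, as the C1q chains did. The other two with an unadjusted p under 0.05 had negative estimates, Ptprc, the leukocyte antigen CD45, with 63.9 and 62.1 in subjective day, compared with 41.6 and 42.1 in objective day (-0.58, adjusted p = 0.136, and -0.17 with the GC trend removed), and Itgam, described with the complement receptors (-0.39). Ptprc was named after its values were seen. Fcer1g, the adaptor of Fc receptors, was at 108 and 85.7 in subjective day and at 77.3 and 108 in objective day, with overlapping conditions. Of 5 transcription factors of the lineage 0 passed, and 0 had an unadjusted p under 0.05, and Spi1 (0.33, adjusted p = 0.348) and Irf5 (-0.03, adjusted p = 0.937) were the most abundant of the 5 per kilobase.

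The ligands of the receptors did not pass either. Cx3cl1, the gene of fractalkine, was at 3098 and 2837 in subjective day and at 3515 and 3389 in objective day, without overlap. The log2 fold change of Cx3cl1 was 0.22 (SE 0.07), with an adjusted p of 0.0921 as reported and from 0.0175 to 0.507 over the 13 alternatives, 2 of which passed (with the replicate block, and without the first subjective day sample at 0.0290). Il34 was at 258 and 242 in subjective day and at 236 and 269.7 in objective day, and the log2 fold change of 0.02 turned to -0.11 with the GC trend removed. Fractalkine is made by neurons and endothelium rather than by microglia.

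Among 8 lysosomal and phagocytic genes, Hexa rose in objective day and the other 7 did not pass. Hexa, a lysosomal glycosidase, is made by most cells. It was at 1541 and 1474 in subjective day and at 1906 and 1867 in objective day (log2 fold change 0.32, SE 0.06, adjusted p = 0.0226). Its adjusted p was 0.160 without the first objective day sample, 0.121 without the second and 0.143 with the GC trend removed, within a range of 0.00525 to 0.160 over the alternatives. Hexa shares 255 exonic bases with Tmem202 on the opposite strand. In all, 1 of these 34 genes of microglia, phagocytosis and the receptors' ligands was called, against 8.51% of all genes tested.

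Of 14 genes tested that are linked to activated microglia, Gpnmb rose in objective day and 13 did not pass, a share close to the 8.51% called among all genes tested. Gpnmb, a membrane glycoprotein of disease-associated microglia that pigment cells also make, was at 2797 and 2823 in subjective day and at 4842 and 3763 in objective day. The log2 fold change of Gpnmb was 0.60 (SE 0.11, adjusted p = 0.0189), and the call held without each sample in turn, with adjusted p up to 0.0378, but not with the GC trend removed (0.57, adjusted p = 0.0613). Of 11 cytokines, chemokines and related activation genes found in the table, 4 were high enough to be tested and 0 of these passed, with 1 at an unadjusted p under 0.05, against 25.4% of all genes tested. Cxcl16, a membrane-bound chemokine, was at 603 and 539.9 in subjective day and at 579 and 525 in objective day. Tlr2, a receptor for microbial lipoproteins, was at 42.9 and 38.9 in subjective day and at 42.5 and 46.9 in objective day, and neither gene passed (adjusted p = 0.788 and 0.778).

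Of 41 complement genes listed and tested, 1 was called, against 8.51% of all genes tested, and it was an inhibitor that was higher in objective day. The median log2 fold change was 0.09 for the 41 genes and 0.06 for the 37 that are not among the 9. Besides C1q, the 10 genes tested of the classical pathway include the proteases C1r and C1s and their substrates C4 and C2, and 0 of the 10 passed, with 3 at an unadjusted p under 0.05, against 25.4% of all genes tested. Of 4 genes tested of the lectin pathway 0 passed, and 0 had an unadjusted p under 0.05. Colec12, a scavenger receptor with a collectin domain, was at 568 and 469 in subjective day and at 547 and 529.6 in objective day. Masp2, the protease of the lectin pathway, was at 104 and 105 in subjective day and at 117 and 146 in objective day, with adjusted p of 0.773 for Colec12 and 0.282 for Masp2. Masp2 shares 1817 of its 3307 exonic bases with Tardbp on the opposite strand, so that its values may hold reads of Tardbp.

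The alternative pathway showed no call around C3 with all samples. Cfd, the protease factor D, was at 769.9 and 972 in subjective day and at 758 and 794 in objective day (log2 fold change -0.16, adjusted p = 0.434). It passed without the first subjective day sample (-0.33, adjusted p = 0.0394) and in none of the other 12 alternatives. As for C3, the highest value of Cfd was in the second subjective day sample. Cfp, the stabilising factor properdin, was at 352 and 336 in subjective day and at 302 and 362 in objective day (-0.06, adjusted p = 0.801). All 4 genes of C3 and this pathway had overlapping conditions, and 0 passed at an unadjusted p under 0.05.

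The terminal components, which form the membrane attack complex, were low, and 3 of 6 found were tested. C8g was at 43.9 and 55.2 in subjective day and at 44.3 and 54.6 in objective day, and C6 stayed between 7.99 and 15.3. None of the 3 was called, and 1 had an unadjusted p under 0.05, against 8.51% and 25.4% of all genes tested. Of 7 complement receptors tested 0 passed, with 2 at an unadjusted p under 0.05, which is close to the share of all genes. Cd93, a receptor of endothelium and myeloid cells, was at 308 and 301 in subjective day and at 408 and 357 in objective day (log2 fold change 0.33, adjusted p = 0.112). Itgam, the alpha chain of complement receptor CR3 of microglia, was at 202 and 190.7 in subjective day and at 131 and 169 in objective day (-0.39, adjusted p = 0.175). Itgam shares 3450 of its 5024 exonic bases in GENCODE M21 with Gm49368 on the same strand.

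The called gene was Csmd1, the gene of a neuronal membrane protein with complement control domains, which rose in objective day. Csmd1 was at 515 and 584 in subjective day and at 807 and 849 in objective day, without overlap (log2 fold change 0.59, SE 0.09, adjusted p = 0.0101). Its call held without each sample in turn, with adjusted p up to 0.0489. With the GC trend removed the value was 0.54 (adjusted p = 0.0507), and over the 13 alternatives the adjusted p ranged from 0.00169 to 0.130. The other 12 inhibitors tested did not pass.

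**Figure D5:**
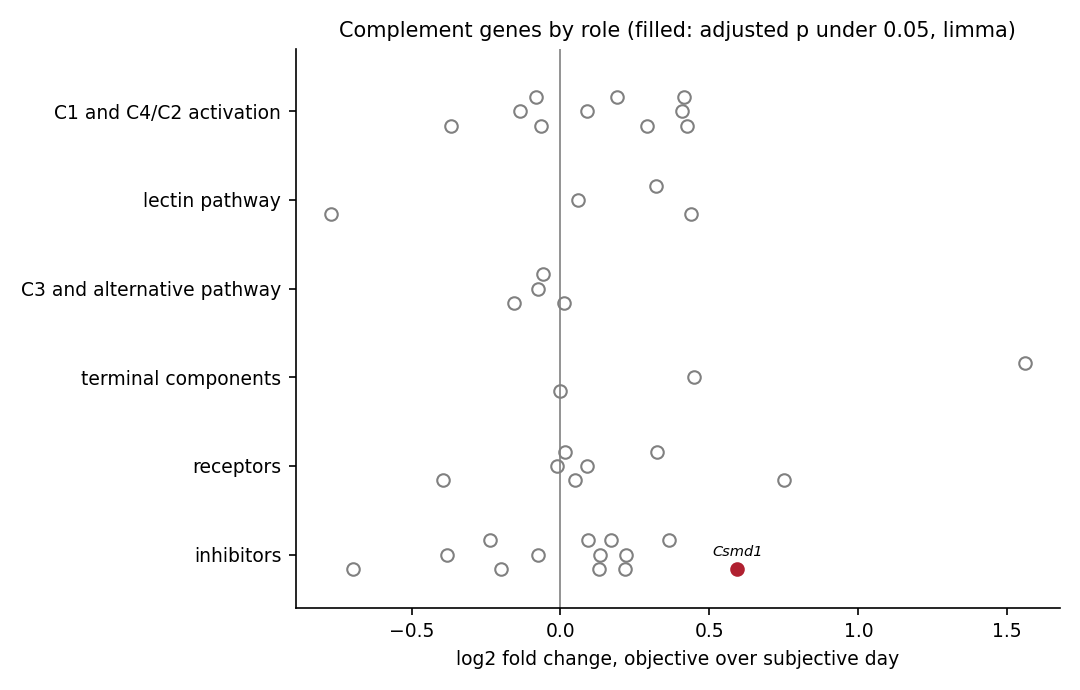
Log2 fold change of objective over subjective day (x axis) for the 41 complement genes tested, by role, with a filled point for an adjusted p under 0.05 in limma. The filled point is Csmd1 at 0.59, an inhibitor.

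All 9 genes and all 8 further microglia-enriched genes were measured, and markers of other cells in the extracts were summed beside them. The summed level of 10 markers of perivascular and choroidal macrophages was 3720 and 4117 in subjective day, compared with 1972 and 3283 in objective day. Without Cbr2, left out after its values were seen, the sum of the other 9 was 1718 and 1431 in subjective day, compared with 1472 and 1656 in objective day, with overlapping conditions. That of 3 monocyte markers was 177 and 158 in subjective day, compared with 103 and 116 in objective day. Conditions did not overlap for 56.1% of all genes tested singly. Of the 3 monocyte markers 1 (Plac8) was called lower, against 7.45% of all genes tested. Ly6c2, by contrast, was at 31.96 and 26.7 in subjective day, compared with 39.7 and 37.3 in objective day. The lymphocyte and neutrophil sums were small, between 60.4 and 67.5 for 6 genes of T and NK cells, between 81.6 and 124.8 for 4 genes of B cells and between 22.2 and 47.1 for 4 genes of neutrophils. Of the T and NK cell genes 2 were under 3 in all samples, and so were 2 of the neutrophil genes.

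The summed levels of markers of blood and the ocular surface did not overlap between the conditions. The sum of 3 haemoglobin and red cell genes was 1234 and 1395 in subjective day, compared with 1939 and 2198 in objective day. That of 5 genes of the ocular surface epithelium was 10375 and 10854 in subjective day, compared with 2965 and 5430 in objective day, and 4 of 4 tested were called lower, against 7.45% of all genes tested. The summed level of the surface genes was thus lower in both objective day samples, and that of the red cell genes was higher in both. Of all genes tested singly, 56.1% had conditions that did not overlap. Single genes did not all follow their sum. Hba-a1 of the red cells and Krt14 and Krt5 of the surface were called, against 8.51% of all genes tested. In contrast, Hba-a2 (10.98 and 20.8 in subjective day, compared with 12.2 and 22.1 in objective day) and Krt12 (3.99 and 7.67, compared with 1.78 and 12.5) had overlapping conditions. The sum of 4 astrocyte markers was 4111 and 4072 in subjective day, compared with 3758 and 3468 in objective day, but without Gfap the sum of the other 3 was 2074 and 1835, compared with 2250 and 1900, with overlap. The sum of 5 endothelial markers was 13761 and 13750, compared with 12996 and 12789, most of it from Kdr, while Cldn5 was called higher in objective day (0.52, adjusted p = 0.0207, and 0.141 with the GC trend removed). Gfap and Kdr were singled out after their values were seen. Gfap, the filament protein of astrocytes and reactive Müller glia, fell in objective day (log2 fold change -0.47, adjusted p = 0.00970, and 0.0289 with the GC trend removed). Aqp4, a water channel (-0.44, adjusted p = 0.00707), and Slc1a3, a glutamate transporter (-0.34, adjusted p = 0.0166), both of Müller glia, also fell, but did not pass with the GC trend removed (adjusted p = 0.330 and 0.0924). The other 3 Müller glia markers and the other 3 astrocyte markers did not pass, while 7.45% of all genes tested were called lower. The call of Gfap held without each sample in turn, whereas that of Aqp4 was lost without the second objective day sample (adjusted p = 0.0508) and those of Slc1a3 (0.142 and 0.0830) and Cldn5 (0.0893 and 0.138) without the first or the second objective day sample. The sums of the Müller glia, rod, RPE and fibroblast markers overlapped between the conditions. The part of these cells in the values of the 9 genes was not tested.

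The genes most like each of the 9 in their pattern over the 4 samples were found by the distance between log2 values, each centred on its own mean. Nearest to the mean of the 3 C1q chains were Manba (distance 0.03), Cct6b (0.03) and Gm16534 (0.05), with 182 genes within 0.2. Nearest to P2ry12 were Zfp955a (0.07), Zfp458 (0.09) and Dnajb9 (0.10), with 31 genes within 0.2. Aif1 was nearest to P2ry6 (0.06), Pgc (0.07) and Ecel1 (0.07), Tmem119 to Cytl1 (0.04), Clec4a1 (0.05) and 4930512B01Rik (0.06), and C3 to Usp17la, Gm15868 and Apoa1 (0.06 each). Around the flat profiles of Cx3cr1 and Csf1r, 6592 and 4748 genes lay within 0.2, with Luzp1, Idh3a and Camta1 nearest to Cx3cr1 and Ddx59, Trappc3 and Bcap31 nearest to Csf1r. With 4 samples such a likeness is a description of these profiles.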

How the data were processed

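RNA-seq of 4 eye samples, 2 from subjective day and 2 from objective day, was analysed. Polyadenylated RNA was read on 1 lane. Per the submitters' processing notes and the methods of the study, the authors used CASAVA 1.8, TopHat2 2.0.9, Bowtie2 2.1.0, an Ensembl release 72 annotation, HTSeq and edgeR; the strand setting is not given in the sources used here. The deposited values are a signal per gene with decimals and near-equal totals, read as gene counts brought to one library size, a form inferred from the values and not stated in the sources used here, so that no count model was used and the depth is unknown. The deposited columns of fold change, p-value and adjusted p hold the authors' comparison and were not used. The number of sample columns left unused was 0.

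After log2(value + 1) transformation of the deposited values, genes that reached 10 in no fewer than 2 samples were compared with limma 3.58.1 in R 4.3.3 (lmFit, eBayes with a variance trend, Benjamini-Hochberg adjustment over 17784 genes, threshold 0.05). The labels call the samples biological replicates. GC content and length are those of the longest GENCODE M21 transcript, known for 98.6% of genes tested, and the GC trend was removed by local regression with a span of 0.3, which takes out biological differences along GC content too. Promoters were taken from RefSeq (GRCm38.p6). C1s1, C1s2 and Adgre1 were matched by gene ID. The procedure was tested on simulated data.

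Some genes are not reported here and were left out of the lists and their counts. The 9 genes and the lists were chosen with earlier results of these data known. Named were the 9 genes, the called genes of each list (at most 6), up to 2 genes of highest level per kilobase in each role with no call, and the 3 nearest genes by profile; marker lists of other cells are given mainly as sums. Gpr34, Slc2a5, Ptprc, Hba-a2, Krt12, Kdr, Cldn5, Plac8 and Ly6c2 were named outside this rule. Alternatives covered the replicate block, filters, pseudocounts of 0.5 and 10, scaling, variance trend, GC content and each sample left out.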

Additional observations from a re-analysis of the deposited data

How the results depend on the processing

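Of the 1514 genes called, the count became 188 with the GC trend removed, 0 without the variance trend (3586 at an unadjusted p under 0.05) and 664 to 2557 when each sample was left out in turn. Of the 9 genes, 1 was called, against 0 without the variance trend, 0 with the GC trend removed, 0 with the GC trend removed and the replicate block, and 0 to 3 with a sample left out. The 1 call among complement genes became 0 without the variance trend and 0 with the GC trend removed, and 1 to 8 with a sample left out. The 1 call among the 34 other genes of microglia, phagocytosis and ligands became 0 in both of these fits and 0 to 3 with a sample left out. P2ry12 stayed at -0.90 without the variance trend (adjusted p = 0.145), was at -0.44 with the GC trend removed (0.323, and 0.179 with the block added), and ranged from -1.11 to -0.69 with a sample left out. The cause of these changes was not tested.

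The sign turned with the GC trend removed for Cx3cr1 (-0.042), Csf1r (-0.026), Il34 (-0.11), Olfml3 (-0.085), Hba-a2 (-0.017) and Lyve1 (0.0017). With a sample left out, the log2 fold change of Aif1 ranged from 0.38 to 0.83, C1qa from 0.18 to 0.64, C1qb from 0.24 to 0.59, C1qc from -0.0080 to 0.39, C3 from -0.38 to 0.23, Cx3cr1 from -0.048 to 0.061, Csf1r from -0.049 to 0.22, Tmem119 from -0.12 to 0.50, Il34 from -0.079 to 0.11, Olfml3 from -0.21 to 0.22, Fcer1g from -0.31 to 0.17, Irf5 from -0.18 to 0.12, Cxcl16 from -0.13 to 0.029, Colec12 from -0.077 to 0.20, Cfd from -0.33 to 0.011, Cfp from -0.19 to 0.071, Gpr34 from -1.55 to -0.62, Cbr2 from -2.21 to -0.51, Hba-a2 from -0.32 to 0.54 and C8g from -0.16 to 0.16. Other filters, pseudocounts and scaling changed no call of the 9 genes.

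The replicate numbers 1 and 2 occur in both conditions, but no label says that they mark a shared batch. The deviations of same-numbered samples correlated at 0.319 across genes. With the replicate block, 3613 genes were called, 5 complement genes, 3 of those 34 genes and P2ry12 (adjusted p = 0.0136). With the block and the GC trend removed, 1124 of 17536 genes were called, among them 3 complement genes and 1 of those 34 genes. With 2 samples in each condition, the number of samples limits the precision of every gene, and a lone sample left in a condition is assumed to vary like the others.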

Other observations

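The genes of MHC class II, which present antigen on macrophages and dendritic cells, numbered 7, their median difference was 0.34 on the log2 scale, compared with 0.01 over all genes tested, and 0 of them passed limma's test or had an unadjusted p under 0.05, against 8.51% and 25.4% of all genes. Cd74, the invariant chain, was at 797 and 554 in subjective day and at 750.2 and 956 in objective day, and H2-Ab1 was at 194 and 106 in subjective day and at 183 and 257.5 in objective day. Both had their lowest value in the second subjective day sample and their highest in the second objective day sample, as C1qa and C1qb did. Without the first subjective day sample, Cd74 (log2 fold change 0.61, adjusted p = 0.0157) and H2-Ab1 (1.02, adjusted p = 0.0124) passed limma's test, and without the second they were at 0.088 and 0.16. Of 10 genes of perivascular and choroidal macrophages 0 passed and 2 had an unadjusted p under 0.05, a share not above that of all genes. Lyve1, a hyaluronan receptor of such macrophages, stayed between 500.02 and 564, while Cbr2, a carbonyl reductase, was at 2002 and 2686 in subjective day and at 500.5 and 1627 in objective day (log2 fold change -1.36, SE 0.46, adjusted p = 0.120 in limma, and 5.76e-05 to 0.332 over the 13 alternatives). Its log2 fold change was -2.21 without the second objective day sample, where it passed, and -0.51 without the first, and it passed with the replicate block (adjusted p = 0.00664, and 0.00928 with the GC trend removed as well). The summed level of 5 mast cell genes was 803 and 667 in subjective day, compared with 813 and 872 in objective day, and 0 of the 5 passed, with 1 at an unadjusted p under 0.05, again not above the share of all genes.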
